A study of Mus musculus with 31 samples.

Results

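The transcriptional response of melanoma cells to the GC clobetasol propionate was measured *in vitro*, in cultures of a cell line grown outside a host. The 5 libraries are the 3 cultures of parental cells labelled as control (DMSO) and the 2 labelled as GC-treated, chosen by those labels from the 31 libraries of the series. The line comes from a single C57BL/6 melanoma model in which a *Tyr*-driven, tamoxifen-inducible Cre switches on oncogenic *Nras*, and both groups carry that background. Cells were exposed to vehicle or drug for 48 h. The treatment label gives the dose as 10 µM and the names of the libraries give it as 1 µM, so the dose is not settled here. A further 6 cultures of GR KO cells, 3 with DMSO and 3 with GC, entered the same model and are given beside the parental values. They come from 1 CRISPR-Cas9 clone of the same line, and any difference between that clone and the parental line cannot be told apart from the loss of GR. The labels name the libraries as separate samples and do not say whether they were separate cultures, so p-values measure the spread between these samples, which may be technical. The names of the parental and GR KO culture libraries all carry the same date, so spread between dates is not covered.

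GCs enter the cell and bind GR, a nuclear receptor that waits in the cytoplasm in a complex with heat shock proteins and immunophilins. Bound GR moves to the nucleus, where it binds palindromic elements or other transcription factors and raises or lowers transcription, and its products include proteins that dampen inflammatory, kinase and receptor signaling. In tumor tissue such effects mix with those in immune and stromal cells, whereas a melanoma line in culture is measured apart from a host. Markers of other cell types in these cultures are given below.

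Libraries were prepared from the 3′ ends of polyadenylated RNA, and a value is the number of reads counted on a gene. Totals were 15121571, 16743983 and 16648617 counts in the DMSO cultures and 14441166 and 22463188 in the GC cultures. At these depths 3 counts, taken as the floor, equal 0.134 to 0.208 CPM (counts scaled to an equal library size), and floors and intervals cover counting error only. Mitochondrial transcripts took 0.719% to 0.831% of the counts in the 5 cultures. DMSO culture 2 stood apart from the other DMSO cultures. It had the lowest share of ribosomal-protein transcripts, 7.05% against 8.89% in both other DMSO cultures and 9.14% and 8.44% in the GC cultures. It was the lowest of the 3 DMSO cultures for 42.5% of the genes tested, while culture 1 was the lowest for 27.1% and culture 3 for 30.4%. Across genes, its log2 levels had Pearson correlations of 0.968 and 0.966 with the other DMSO cultures, which correlated with each other at 0.988, and genes are not independent replicates. Those other DMSO cultures correlated with the GC cultures at 0.974 to 0.984, closer than with DMSO culture 2. Results are therefore also given without it where that changes them.

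The label of a melanoma culture was compared with markers of the lineage and of other cell types. Among 7 melanocytic markers, the regulator *Mitf* was at 8.72, 10.0 and 11.7 CPM with DMSO and 9.73 and 11.5 CPM with GC, while *Sox10*, *Mlana*, *Tyr*, *Tyrp1* and *Dct* had no count in any of the 5 cultures. The remaining marker, *Pmel*, had 8, 0 and 3 counts with DMSO and 0 and 3 with GC. Most defining markers were thus absent at this depth, and the cells are called melanoma by their origin. Leukocyte markers *Ptprc*, *Cd3e*, *Cd8a* and *Ly6g* also had no count in these cultures, and the 10 immune markers summed to 2.31, 0.657 and 1.14 CPM with DMSO and 0 and 1.20 CPM with GC, with *Csf1r* the most abundant over the 5 cultures. The 5 erythroid markers stayed at or under 0.397 CPM in every culture. The 5 keratinocyte markers summed to 1.12, 1.25 and 1.50 CPM with DMSO and 3.46 and 1.25 CPM with GC, mostly *Krt10*, with *Krt5* and *Krt1* at 0. The 5 endothelial markers summed to 1.85, 2.09 and 1.98 CPM with DMSO and 4.71 and 3.52 CPM with GC. *Kdr* was the most abundant, with 17, 19 and 21 counts with DMSO and 59 and 78 with GC, *Tek* was at 0, and *Kdr* did not pass the test. Fibroblast markers summed to 49.9, 27.4 and 31.2 CPM with DMSO and 24.4 and 28.3 CPM with GC, most of it the collagen gene *Col1a1*. Among them *Dcn*, a matrix proteoglycan, had 31, 19 and 20 counts with DMSO and 4 and 11 with GC, both GC cultures below all DMSO cultures, and did not pass the test. The part of such cells in the results was not tested.

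*Nr3c1*, which encodes GR and was edited in the GR KO clone, was at 33.2, 30.0 and 35.6 CPM in parental cells with DMSO and 39.5 and 33.4 CPM with GC. GR KO cells had 24.8, 21.0 and 16.4 CPM with DMSO and 20.9, 22.5 and 13.1 CPM with GC. A 3′ tag does not show the edit, so these values do not check the knockout. The paper checked GR protein in single clones by western blot, which is not part of these data. The receptor transcript did not change past the test in parental cells, with a log2 fold change of 0.15 (SE 0.24, adjusted p = 0.832), or 0.08 without DMSO culture 2.

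Of 12525 genes tested, 110 were DEGs (0.878%), defined by an adjusted p under 0.05 from edgeR's quasi-likelihood test and a fold change of at least 1.5. Upregulated DEGs numbered 77 (0.615%) and downregulated DEGs 33 (0.263%). These are the shares to set beside the counts of every list below, and a short list with no DEG is near them. The median log2 fold change was 1.52 among the upregulated (0.63 to 6.17) and -1.25 among the downregulated DEGs (-4.21 to -0.61), against -0.00052 over all genes tested. A log2 fold change of at least 1 in size was reached by 66 of the upregulated and 23 of the downregulated DEGs, and of at least 2 by 26 and 6. All 110 had GC cultures that did not overlap the DMSO cultures, which was also true of 13.8% of all genes tested in the upward and 14% in the downward direction. A change in RNA per cell and a change in the share of cells that express a gene cannot be told apart in such bulk cultures. Fitted to both genotypes, 37 genes passed the test of the difference between the parental and the GR KO effect (0.295% of those tested). Of these, 36 were among the 110. DESeq2 called 128 such differences, and edgeR 22 to 43 with a parental DMSO or GR KO culture left out. No gene was a DEG in GR KO cells with edgeR or with DESeq2. Of the 12525 genes tested, 237 had an unadjusted edgeR p under 0.05 there, against 1062 in parental cells. The 237 are fewer than that threshold would pass if no gene responded. The count in parental cells rests on few cultures: without DMSO culture 1 it was 63, without DMSO culture 2 it was 78, of which 72 were among the 110, without DMSO culture 3 it was 61, without GC culture 1 it was 31 (28 up, 3 down) and without GC culture 2 it was 36 (31 up, 5 down). DESeq2 called 251 genes, all 110 among them, and split them more evenly, with 137 up and 114 down.

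**Figure D1:**
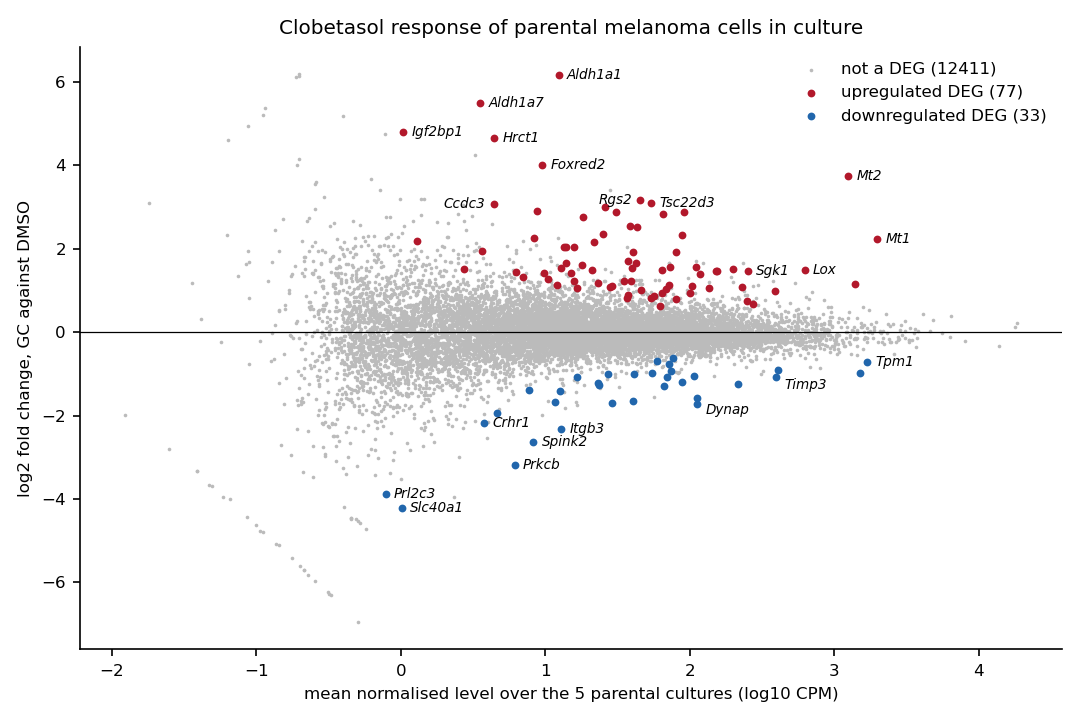
Log2 fold change with GC in parental cultures (vertical axis) against the mean normalised level over the 5 parental cultures (horizontal axis, log10 CPM) for 12521 genes with a count there. Red and blue points are the 77 upregulated and 33 downregulated DEGs, gray points are all other genes, and the largest spread of gray points lies at low levels.

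Of 24 established GR targets that were tested, 10 rose (*Tsc22d3*, *Fkbp5*, *Sgk1*, *Rgs2*, *Per1*, *Klf9*, *Cebpd*, *Mt1*, *Mt2* and *Glul*), none fell, and the median log2 fold change was 1.08, compared with -0.04 in GR KO cells. In 18 of the 24, both GC cultures lay above all DMSO cultures, against 13.8% of all genes tested. DMSO culture 2 was the lowest DMSO culture for 15 of the 24, and its part in the fold changes was not tested beyond leaving it out, which gave 8 upregulated DEGs in the group. With each culture of the model left out in turn the number ranged from 6 to 11.

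*Tsc22d3* encodes GILZ, a leucine zipper protein that restrains NF-κB and AP-1. Its levels were 14.5, 10.6 and 15.4 CPM with DMSO and 116 and 114 CPM with GC, a log2 fold change of 3.09 (SE 0.20, adjusted p = 2.28e-05). Both GC cultures held several times the level of any DMSO culture. *Rgs2*, a GTPase activator that limits signaling from Gq-coupled receptors, was at 14.1, 7.94 and 10.3 CPM with DMSO and 98.0 and 96.6 CPM with GC, which was 9.03-fold higher (log2 SE 0.22, adjusted p = 2.62e-05). *Per1*, a repressor of the circadian clock, was at 7.09, 3.88 and 5.46 CPM with DMSO and at 37.0 and 37.9 CPM with GC, a log2 fold change of 2.77 (SE 0.27, adjusted p = 0.000337). In these 3 genes the GC cultures nearly coincided, whereas DMSO culture 2 was the lowest each time.

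*Sgk1*, a kinase downstream of PI3K, started higher, at 138, 164 and 139 CPM, and reached 400 and 411 CPM with GC (log2 fold change 1.46, SE 0.13, adjusted p = 0.000230). *Klf9*, a transcriptional repressor, was at 46.0, 28.6 and 39.4 CPM with DMSO and 161 and 125 CPM with GC, and it rose by 1.91 (SE 0.29, adjusted p = 0.00888). Without GC culture 1 its adjusted p was 0.111. *Fkbp5*, the immunophilin that lowers the affinity of GR for its ligand, had the largest SE among the 10 DEGs of the group, at 47.0, 16.8 and 37.3 CPM with DMSO and 200 and 138 CPM with GC. Its log2 fold change of 2.33 had an SE of 0.42 (adjusted p = 0.0248) and was 2.00 without DMSO culture 2 (adjusted p = 0.0511). Dropping DMSO culture 3, GC culture 1 or GC culture 2 gave *Fkbp5* adjusted p-values of 0.0990, 0.279 and 0.0937. *Cebpd*, a transcription factor of the acute phase response, rose by 1.23 (adjusted p = 0.0222), a call lost without any single parental culture (adjusted p from 0.0688 to 0.257). *Glul*, which makes glutamine, rose by 1.02 (SE 0.16, adjusted p = 0.0128) and lost its call without DMSO culture 3 (adjusted p = 0.0686) or either GC culture (0.0607 and 0.207).

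Several targets that respond within hours in other cells did not pass the test at 48 h. *Dusp1*, a phosphatase that switches off MAP kinases, was at 16.01, 3.20 and 15.98 CPM with DMSO and 27.5 and 22.6 CPM with GC. Its log2 fold change was 1.09 with an SE of 0.66 (adjusted p = 0.679). *Nfkbia*, the inhibitor that holds NF-κB in the cytoplasm, was at 84.3, 41.9 and 82.4 CPM with DMSO and 136 and 130 CPM with GC (log2 fold change 0.93, adjusted p = 0.198). For *Ddit4*, a brake on mTOR, the log2 fold change was 0.74 (adjusted p = 0.206). Both GC cultures lay above all DMSO cultures in these 3 genes. Without DMSO culture 2 the log2 fold changes were smaller and still did not pass, at 0.64 for *Dusp1* (adjusted p = 0.994), 0.67 for *Nfkbia* (0.237) and 0.60 for *Ddit4* (0.462).

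The receptor machinery was a further list. Of 32 genes tested there, for GR, chaperones, immunophilins, coregulators and a steroid-activating enzyme, *Fkbp5* and *Hspb1* were DEGs, both upregulated, and the median log2 fold change was -0.03. *Hspb1*, a small heat shock protein, was at 99.9, 58.6 and 107 CPM with DMSO and 251 and 244 CPM with GC (log2 fold change 1.48, SE 0.24, adjusted p = 0.0127). It kept its call without DMSO culture 2 (adjusted p = 0.0134) and lost it without GC culture 1 (0.117) or GC culture 2 (0.107). Among 17 clock genes *Per1* was the only DEG, with a median of 0.09 for the list.

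**Figure D2:**
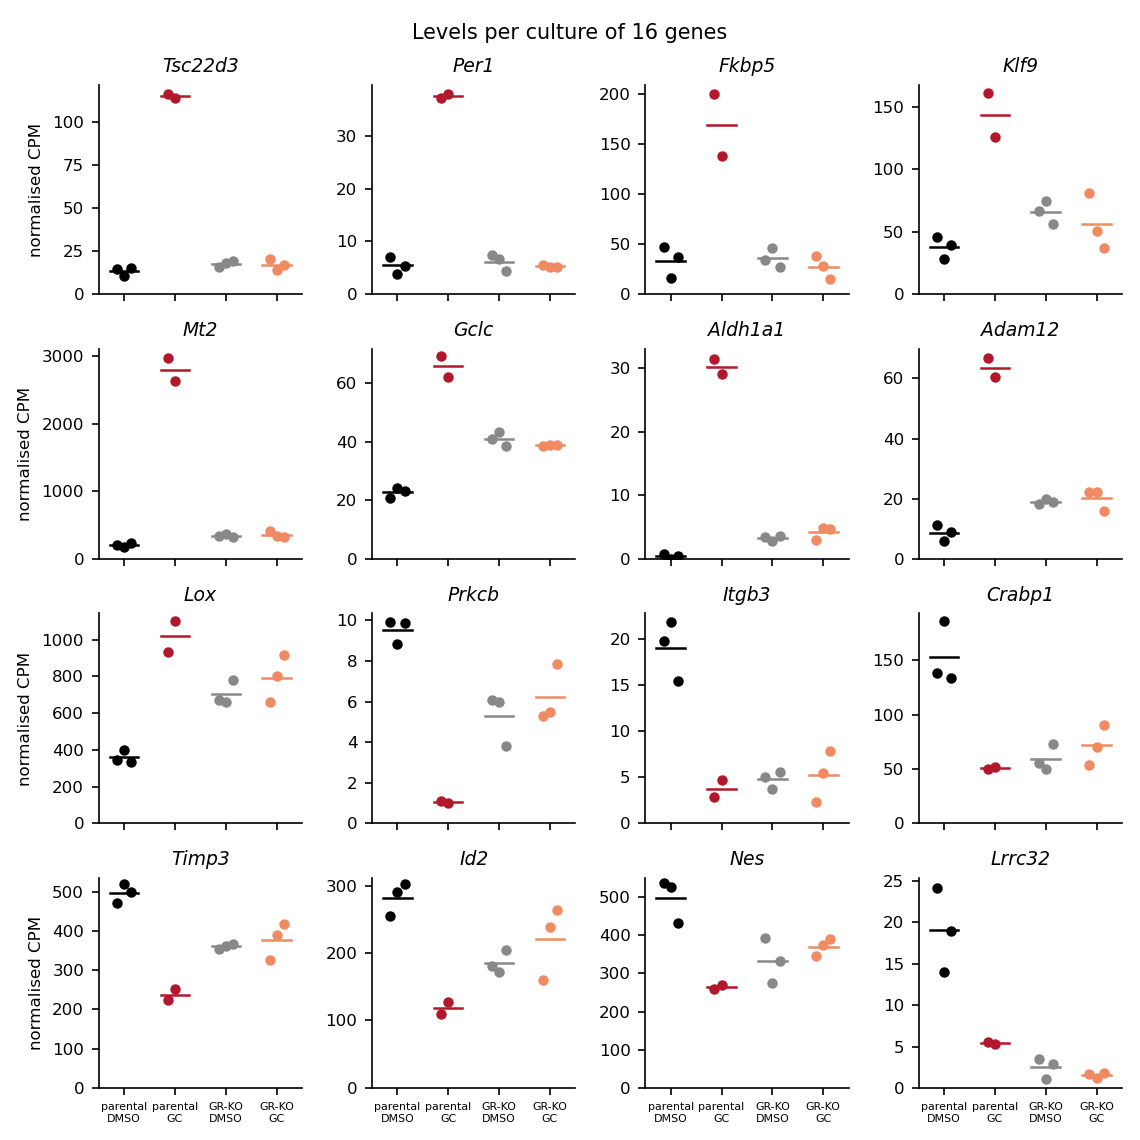
Normalised level (CPM, vertical axes, each starting at 0) of 16 genes in the 11 cultures, with parental DMSO and GC cultures followed by GR KO DMSO and GC cultures. Each dot is a culture and each line is a group mean, and in all 16 genes the parental GC cultures lie outside the range of the parental DMSO cultures.

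The metallothioneins gave the largest absolute gain in transcripts among the named genes. These small cysteine-rich proteins bind zinc and copper and are induced by metals as well as by GCs. *Mt2* (ENSMUSG00000031762) was at 205, 175 and 241 CPM with DMSO and 2969 and 2633 CPM with GC, 13.5-fold higher (log2 fold change 3.76, SE 0.17, adjusted p = 1.58e-06). *Mt1* (ENSMUSG00000031765) started at 756, 866 and 785 CPM and reached 3433 and 4099 CPM, 4.69-fold higher (SE of the log2 value 0.20, adjusted p = 0.000174). Both calls held in each of the 21 other settings. The pair are paralogs, and reads that could have been assigned to either make the split between them uncertain. Of the 18 genes tested in the list of metallothioneins and zinc transporters, these were the only DEGs. Both GC cultures lay above all DMSO cultures in 9 of the 18, against 13.8% of all genes tested, with a median log2 fold change of 0.33. DMSO culture 2 was the lowest DMSO culture for 11 of the 18, and its part in that median was not tested.

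Genes of retinoid metabolism changed in both directions. Of 17 tested, 4 rose and 1 fell, with a median of -0.12, and *Aldh1a7*, described with them, is outside the list. *Aldh1a1* (ENSMUSG00000053279), which oxidises retinaldehyde to retinoic acid, was at 0.781, 0 and 0.470 CPM with DMSO and 31.5 and 29.0 CPM with GC. Its log2 fold change of 6.17 (SE 0.62, adjusted p = 0.000363) was the highest of all DEGs, and because its DMSO levels rest on 20 counts in all, the size of the fold is loosely fixed. The neighbouring paralog *Aldh1a7*, at 0, 0.554 and 0 CPM with DMSO and 7.38 and 9.81 CPM with GC, had a log2 fold change of 5.49 (SE 0.97, adjusted p = 0.0222), and reads may be shared between them. All DMSO counts of *Aldh1a7* lie in DMSO culture 2, so without it the DMSO level is 0 and no fold is given. It kept its call there (adjusted p = 0.00439) and lost it without any other parental culture (0.0771 to 0.174). *Dhrs9*, a retinol dehydrogenase that acts a step before, was at 7.03, 6.59 and 7.29 CPM with DMSO and 28.3 and 29.6 CPM with GC (log2 fold change 2.05, SE 0.29, adjusted p = 0.00551). *Cyp26b1*, which breaks retinoic acid down, rose from 40.1, 35.0 and 46.7 CPM to 90.9 and 150 CPM, and its call was lost without any single parental culture (adjusted p from 0.0583 to 0.390). *Fabp5*, a carrier of fatty acids and retinoic acid, rose by 1.41 (SE 0.26, adjusted p = 0.0269). Its adjusted p was 0.112 without DMSO culture 1, 0.0696 without DMSO culture 2, 0.328 without GC culture 1 and 0.156 without GC culture 2. *Crabp1*, the cytoplasmic binding protein of retinoic acid, went the other way, from 138, 186 and 134 CPM to 49.9 and 52.1 CPM (log2 fold change -1.58, SE 0.25, adjusted p = 0.0100). *Dhrs9* and *Crabp1* each lost their call when either GC culture was left out (adjusted p of 0.0607 and 0.0743 for *Dhrs9*, and of 0.169 and 0.143 for *Crabp1*).

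Matrix genes had DEGs in both directions. Of 72 genes for collagens, crosslinkers, glycoproteins, proteases and inhibitors tested, 7 rose and 1 fell, while the median was 0.06. Over the list 37 log2 fold changes were positive and 35 negative. Both GC cultures lay above all DMSO cultures in 23 genes and below them in 18. Without DMSO culture 2, 5 rose and 1 fell. The split was not tested against the 77 upregulated and 33 downregulated DEGs over all genes. *Adam12*, a membrane metalloprotease, was at 11.2, 5.85 and 8.87 CPM with DMSO and 66.7 and 60.5 CPM with GC (log2 fold change 2.88, SE 0.25, adjusted p = 0.000167). *Adamts1*, a secreted protease that cleaves proteoglycans, went from 21.1, 14.903 and 20.8 CPM to 75.7 and 68.6 CPM, 3.81-fold higher (adjusted p = 0.000234). *Lox*, which crosslinks collagen and elastin, was already high at 346, 400 and 332 CPM and reached 931 and 1104 CPM (log2 fold change 1.50, SE 0.16, adjusted p = 0.000712). Each of these genes had GC cultures well above the DMSO range. *Tgm2*, a transglutaminase that also crosslinks matrix, rose from 83.5, 102 and 82.1 CPM to 234 and 263 CPM (log2 fold change 1.48, adjusted p = 0.00141). *Col11a1*, a minor fibrillar collagen, *Mmp19*, a matrix metalloprotease, and *Vcan*, a large proteoglycan, rose by 1.71, 1.65 and 0.75 on the log2 scale. Leaving out either GC culture ended the calls of these 3 genes (adjusted p from 0.174 to 0.367), as did leaving out DMSO culture 1 (0.0960 to 0.183) or DMSO culture 3 (0.0787 to 0.165). Without DMSO culture 2, *Col11a1* kept its call and *Vcan* and *Mmp19* did not (0.0571 and 0.0715). *Timp3*, a matrix-bound inhibitor of such proteases, was the downregulated member. It was at 470, 520 and 499 CPM with DMSO and 223 and 252 CPM with GC (log2 fold change -1.06, SE 0.14, adjusted p = 0.00359; 0.0892 without GC culture 1).

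Of 33 adhesion molecules tested, *Ncam1*, *Msln* and *Ppl* rose and *Itga7*, *Itgb3* and *Itgb7* fell. *Ncam1*, a neural adhesion molecule, was tightly replicated, at 277, 283 and 277 CPM with DMSO and 561 and 551 CPM with GC (log2 fold change 0.99, SE 0.14, adjusted p = 0.00432), although without GC culture 1 or 2 its adjusted p was 0.0671 and 0.0608. *Msln*, which encodes mesothelin, went from 6.64, 7.02 and 4.82 CPM to 25.0 and 26.1 CPM, and *Ppl*, a desmosomal plakin, from 2.21, 1.72 and 3.29 CPM to 20.4 and 16.2 CPM. *Itgb3*, the β3 integrin subunit that pairs with αv, fell from 19.8, 21.7 and 15.4 CPM to 2.90 and 4.66 CPM. The log2 fold change of *Itgb3* was -2.32 (SE 0.45, adjusted p = 0.0354), and leaving out any single parental culture took it past 0.05 (adjusted p from 0.0771 to 0.494). *Itga7*, a laminin receptor, fell by 1.07 on the log2 scale (SE 0.17, adjusted p = 0.00972), with adjusted p-values of 0.0618 without GC culture 1 and 0.185 without GC culture 2. *Itgb7* fell by 0.99 (adjusted p = 0.0244), and its call too was lost without any single parental culture (0.0504 to 0.277).

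*Itgb3* was also the single DEG among 23 genes tested for storage and activation of latent TGF-β, whose list median was -0.15. *Lrrc32* encodes GARP, which displays latent TGF-β at the cell surface. It was at 24.2, 13.98 and 18.9 CPM with DMSO and 5.52 and 5.24 CPM with GC, so that both GC cultures lay below every DMSO culture. Its log2 fold change of -1.82 (SE 0.43) did not pass edgeR's test (adjusted p = 0.0987), and DESeq2 called it (log2 fold change -1.83, adjusted p = 0.00136). With each culture of the model left out in turn its log2 fold change stayed between -2.005 and -1.63, and it passed in 1 of the 11 fits. None of the ligand transcripts passed, with log2 fold changes of -0.64 for *Tgfb1* (adjusted p = 0.614), 0.44 for *Tgfb2* (0.578) and -0.15 for *Tgfb3* (0.870). Without DMSO culture 2 the value was -0.26 for *Tgfb1* and -0.32 for *Tgfb3*, and *Tgfb3* turned to 0.000236 without DMSO culture 3.

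In the wider list of TGF-β and BMP ligands, antagonists, receptors, signal transducers and targets, 46 genes were tested, of which 1 rose and 2 fell, with a median of -0.12. *Id2*, an inhibitor of basic helix-loop-helix factors, was at 255, 290 and 302 CPM with DMSO and 109 and 128 CPM with GC (log2 fold change -1.25, SE 0.20, adjusted p = 0.0135). It lost its call without DMSO culture 3 (adjusted p = 0.0580), GC culture 1 (0.254) or GC culture 2 (0.114). *Smad3*, the signal transducer of TGF-β and activin receptors, went from 89.3, 90.6 and 79.4 CPM to 45.0 and 56.3 CPM. That was a log2 fold change of -0.77 for *Smad3* (SE 0.15, adjusted p = 0.0323), which no longer passed without any single parental culture (0.0653 to 0.508). *Fstl3*, a secreted binder of activins, rose from 35.6, 46.4 and 29.9 CPM to 97.8 and 113 CPM (log2 fold change 1.50, SE 0.22, adjusted p = 0.00627). Leaving out DMSO culture 1, GC culture 1 or GC culture 2 gave *Fstl3* adjusted p-values of 0.0551, 0.0583 and 0.114. Among 21 YAP and TEAD targets no gene passed with edgeR or DESeq2, and the median was 0.11. With edgeR, 0.878% of all genes tested were DEGs.

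Inflammatory and immune-recognition genes were in several lists. None of 36 NF-κB, cytokine and chemokine genes tested was a DEG with edgeR, DESeq2 called 2 as downregulated, and the median log2 fold change was -0.18. In 10 of the 36 both GC cultures lay below all DMSO cultures and in 5 above. Over all genes tested these shares were 14% and 13.8%. The only DEG among 40 interferon-stimulated genes was *Ifitm3*, an antiviral membrane protein, at 1810, 2248 and 1569 CPM with DMSO and 897 and 1017 CPM with GC (log2 fold change -0.97, SE 0.18, adjusted p = 0.0255). Both GC cultures were below every DMSO culture, and the call was lost without DMSO culture 1 (adjusted p = 0.0771), GC culture 1 (0.387) or GC culture 2 (0.185). The interferon list had a median of -0.18, and DESeq2 called 2 of it as upregulated and 4 as downregulated. In 12 of its 40 genes both GC cultures lay below all DMSO cultures and in 5 above. Of 22 genes for antigen presentation and immune ligands none passed with either tool, where edgeR called 0.878% of all genes tested. In 4 of the 22 both GC cultures lay below all DMSO cultures and in 3 above. *H2-K1*, an MHC class I heavy chain, was at 25.3, 11.8 and 26.6 CPM with DMSO and 35.5 and 27.3 CPM with GC (log2 fold change 0.56, adjusted p = 0.698, and 0.27 without DMSO culture 2). *B2m*, its light chain, had a log2 fold change of -0.13 (SE 0.21, adjusted p = 0.831) with values of -0.25 without DMSO culture 2 and 0.10 without GC culture 1. *Cd274*, which encodes PD-L1, lay between 0.130 and 0.411 CPM in all 5 cultures, near the floor, and no change was detectable at this depth. In the list of IL-6 family and acute phase genes, *Il6st*, the shared receptor subunit gp130, was the only DEG among 16 tested. It was at 64.1, 57.3 and 64.6 CPM with DMSO and 103 and 111 CPM with GC (log2 fold change 0.79, SE 0.13, adjusted p = 0.0138), and it lost its call without DMSO culture 1 (0.0583) or either GC culture (0.0978 and 0.185). The list of 16 leaned the other way, with both GC cultures above all DMSO cultures in 7 genes and below in 1.

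Of 34 genes tested in the list of G-protein and protein kinase C signaling, 4 rose and 2 fell, with a median of 0.21. *Prkcb*, the β isoform of protein kinase C, was at 9.89, 8.81 and 9.87 CPM with DMSO and 1.10 and 0.994 CPM with GC, a log2 fold change of -3.18 (SE 0.34, adjusted p = 0.000581). The DMSO cultures lay close together, and both GC cultures were far below them. *Adra1b*, a Gq-coupled adrenergic receptor, rose from 7.35, 4.74 and 8.11 CPM to 47.0 and 60.9 CPM (log2 fold change 3.00, SE 0.23, adjusted p = 8.31e-05). *Htr1b*, a Gi-coupled serotonin receptor, rose from 7.42, 3.76 and 6.76 CPM to 23.5 and 25.9 CPM (adjusted p = 0.00359, and 0.0509 without GC culture 2). *Akap12*, a scaffold for protein kinases A and C, was 4.51-fold higher (adjusted p = 0.00180). *Crhr1*, the receptor for corticotropin-releasing hormone, fell from 4.10, 4.31 and 8.05 CPM to 1.03 and 1.36 CPM, close to the limit of the test (adjusted p = 0.0491) and beyond it without any single parental culture (0.0616 to 0.527). *Rgs2*, described above, completed the upregulated genes of this list.

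*Gclc*, the catalytic subunit of the rate-limiting enzyme of glutathione synthesis, was at 20.8, 24.3 and 23.03 CPM with DMSO and 69.3 and 62.2 CPM with GC (log2 fold change 1.53, SE 0.13, adjusted p = 0.000174), the only DEG among 30 glutathione and NRF2 genes. *Sphk1*, which makes sphingosine-1-phosphate, rose from 11.6, 6.77 and 9.99 CPM to 50.3 and 46.5 CPM, 5.11-fold (adjusted p = 0.000174). With *Fabp5*, *Sphk1* accounted for the gains among 45 genes of sterol and fatty acid metabolism, and *Ppap2b*, a lipid phosphate phosphatase, fell from 136, 142 and 129 CPM to 64.7 and 65.4 CPM. DMSO culture 2 was the lowest DMSO culture for 30 of those 45 genes. *Ppap2b* had an adjusted p of 0.0193 that ranged from 0.0568 to 0.253 without DMSO culture 1, DMSO culture 3, GC culture 1 or GC culture 2. *Slc40a1*, which encodes the iron exporter ferroportin, was the only DEG of 16 iron and copper genes. The list median was 0.31, with 8 genes that had both GC cultures above all DMSO cultures and 2 that had both below. DMSO culture 2 was the lowest DMSO culture for 9 of the 16. *Slc40a1* was at 1.82, 1.72 and 1.35 CPM with DMSO and 0.0690 and 0.0904 CPM with GC. Its counts were 20.0 times as frequent with DMSO (95% counting interval 6.61 to 99.2), and the adjusted p of 0.00410 rose to 0.0716 and 0.0851 without GC culture 1 or 2.

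In the insulin and mTOR list *Sgk1* and *Deptor* rose among 36 tested. *Deptor*, an inhibitor bound to mTOR complexes, was at 58.0, 72.5 and 56.5 CPM with DMSO and 166 and 200 CPM with GC (log2 fold change 1.56, SE 0.21, adjusted p = 0.00410; 0.0756 without GC culture 2). Of 31 hypoxia genes, *Ndrg1*, *Adm* and *Lox* rose and 14 had both GC cultures above all DMSO cultures, with a list median of 0.32. *Adm*, a vasodilator peptide, and *Ndrg1* lost their calls without any single parental culture (adjusted p from 0.0671 to 0.467 and from 0.0840 to 0.298). Of 31 apoptosis and p53 genes, *Ppm1d*, a phosphatase that acts on p53 and DNA damage kinases, and *Plk3*, a stress-responsive kinase, rose by 1.48 and 1.62 on the log2 scale. *Ppm1d* lost its call without either GC culture (0.169 and 0.0608), and *Plk3* without DMSO culture 1 (0.0698), DMSO culture 3 (0.0580), GC culture 1 (0.328) or GC culture 2 (0.114). Among 43 genes of RAS and MAP kinase output *Map3k6*, a kinase upstream of stress-activated kinases, was the only DEG, at 15.4, 15.95 and 14.5 CPM with DMSO and 35.5 and 34.0 CPM with GC. Its adjusted p of 0.0110 was 0.0583, 0.0580, 0.127 and 0.107 without DMSO culture 1, DMSO culture 3, GC culture 1 and GC culture 2.

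None of 49 cell cycle genes passed with edgeR, against 0.878% of all genes tested. At that share no result is read from the count. DESeq2 called 1 as upregulated, and the median was 0.20. DMSO culture 2 was the lowest DMSO culture for 34 of the 49, and its part in that median was not tested. *Mki67*, a marker of cycling cells, was at 123, 108 and 116 CPM with DMSO and 95.9 and 108 CPM with GC (log2 fold change -0.19, SE 0.13, adjusted p = 0.698). *Cdkn1a*, which encodes the cell cycle inhibitor p21, had a log2 fold change of -0.24 (adjusted p = 0.690), and -0.13 without DMSO culture 2.

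Of 24 markers of neural crest and dedifferentiated melanoma tested, *Nes* and *Tenm4* fell and none rose, with a median of -0.16. In 9 of the 24 both GC cultures lay below all DMSO cultures and in 1 above. *Nes*, the intermediate filament of neural progenitors, was at 536, 527 and 432 CPM with DMSO and 260 and 269 CPM with GC (log2 fold change -0.91, SE 0.17, adjusted p = 0.0269). It lost its call without DMSO culture 1 (0.102), DMSO culture 2 (0.0612) or either GC culture (0.355 and 0.244). *Tenm4*, a teneurin of the neuronal surface, fell from 99.4, 81.7 and 78.0 CPM to 34.4 and 36.5 CPM (log2 fold change -1.28, adjusted p = 0.00363; 0.0764 and 0.0638 without GC culture 1 or 2). Of 6 melanocyte genes that could be tested none passed with either tool, and *Mitf* had a log2 fold change of 0.06 (SE 0.25, adjusted p = 0.937).

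Of 35 genes of Notch, Wnt and neuronal guidance tested, 5 fell and 1 rose, with a median of -0.04. *Slit2*, a repellent of growing axons, fell from 16.3, 13.1 and 19.1 CPM to 6.21 and 3.98 CPM, and *Sema5a*, a semaphorin, from 80.9, 107 and 75.3 CPM to 42.4 and 41.4 CPM. *Dkk2*, a secreted Wnt modulator, fell by 0.92, *Ephb6*, a kinase-dead ephrin receptor, by 1.40 and *Sema3a* by 0.61 on the log2 scale. *Plxna2*, a semaphorin receptor, rose by 0.83 (adjusted p = 0.0475). None of these 6 calls held when either GC culture was left out (adjusted p from 0.0618 to 0.573). Those of *Sema3a*, *Ephb6* and *Plxna2* were also lost without any single DMSO culture (0.0576 to 0.199), that of *Slit2* without DMSO culture 1 or 3 (0.0583 and 0.0750) and that of *Dkk2* without DMSO culture 1 (0.0583). Without DMSO culture 2 the group had 4 downregulated DEGs. Among 21 genes of muscle and cytoskeleton, *Sorbs2*, an adaptor of actin structures, rose from 15.6, 16.8 and 11.99 CPM to 90.9 and 78.3 CPM (log2 fold change 2.52, SE 0.17, adjusted p = 2.62e-05). *Tnnt2*, the cardiac troponin T, fell from 36.3, 44.6 and 39.4 CPM to 13.2 and 11.8 CPM (log2 fold change -1.69, SE 0.16, adjusted p = 0.000287). *Tpm1*, a tropomyosin, was the most abundant of these and fell from 1816, 2204 and 1963 CPM to 1201 and 1216 CPM, a call lost without any single parental culture (adjusted p from 0.0583 to 0.393).

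Several of the 24 named DEGs with the largest changes belonged to no list. *M1ap*, named for a role in meiosis, was at 28.5, 22.97 and 24.8 CPM with DMSO and 182 and 194 CPM with GC, a log2 fold change of 2.89 (SE 0.18, adjusted p = 2.28e-05) that passed in all 21 other settings. *Hrct1* went from 0.325, 0.185 and 0.705 CPM to 11.4 and 9.40 CPM (adjusted p = 0.00491), and *Foxred2*, an endoplasmic reticulum flavoprotein, from 2.21, 1.11 and 0.705 CPM to 29.0 and 14.4 CPM (adjusted p = 0.0138; 0.0616 without DMSO culture 2, 0.0772 without DMSO culture 3 and 0.192 without GC culture 1). *Hrct1* had no value without DMSO culture 3 or either GC culture, so its call was not checked there. The mRNA-binding protein gene *Igf2bp1* was at 0.118 CPM or less in the DMSO cultures and at 2.90 and 2.03 CPM with GC. *Ccdc3*, a secreted protein, rose from 1.43, 0.862 and 0.999 CPM to 6.83 and 11.8 CPM. Both lost their calls without any single parental culture (adjusted p from 0.126 to 0.253 for *Igf2bp1* and from 0.0833 to 0.408 for *Ccdc3*). *Spink2*, a protease inhibitor, fell from 13.5, 13.4 and 10.5 CPM to 1.59 and 2.35 CPM (log2 fold change -2.64, SE 0.31, adjusted p = 0.00152) and kept its call in every setting. *Nptx1*, a neuronal pentraxin, fell from 63.2, 41.6 and 62.6 CPM to 14.8 and 20.9 CPM (adjusted p = 0.00359; 0.0735 without GC culture 1). *Dynap*, which encodes a dynactin-associated membrane protein, fell from 135, 197 and 135 CPM to 38.3 and 56.6 CPM (adjusted p = 0.0195; 0.0504 without DMSO culture 2, 0.328 without GC culture 1 and 0.0937 without GC culture 2). *Cd300lb*, an immune-type receptor, fell by 1.93 on the log2 scale (adjusted p = 0.0147; 0.0581 without DMSO culture 3, 0.0764 without GC culture 1 and 0.237 without GC culture 2). *Prl2c3* belongs to a family of near-identical prolactin-like genes and is uncertain, and its counts were 15.7 times as frequent with DMSO (95% counting interval 5.14 to 78.3; adjusted p = 0.0346 and past 0.05 without any single parental culture, from 0.0642 to 0.277).

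The response of the parental cells was compared with that of GR KO cells for each gene. Over the 77 upregulated DEGs the median log2 fold change in GR KO cells was 0.04 and over the 33 downregulated DEGs it was 0.09. The edgeR test of the difference itself was passed by 27 of the upregulated and 9 of the downregulated DEGs, which is 32.7% of the 110. It was not passed by the other 74, for which a weaker response in the clone was not shown by this test. The split depends on the tool and the cultures. Over all genes DESeq2 called 128 differences, and edgeR called 22 to 43 with a parental DMSO or GR KO culture left out. *Rgs2* was at 7.12, 6.01 and 6.08 CPM in GR KO cells with DMSO and 4.56, 5.11 and 4.23 CPM with GC, and its effect was higher in parental cells by 3.64 (SE 0.30, adjusted p = 0.000332). *Prkcb* was at 6.08, 5.97 and 3.82 CPM in the clone with DMSO and 5.31, 5.48 and 7.83 CPM with GC, a difference of -3.41 (SE 0.42, adjusted p = 0.00415). For *Fkbp5* and *Klf9* the difference was 2.72 and 2.14 and did not pass (adjusted p = 0.102 and 0.0523).

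Some of the genes described sat at another level in the clone before any drug. *Itgb3* was at 5.04, 3.77 and 5.60 CPM in GR KO cells with DMSO, *Lrrc32* at 3.53, 1.10 and 2.91 CPM and *Ifitm3* at 281, 262 and 296 CPM, all below the parental DMSO cultures. *Lrrc32* and *Ifitm3* there were also below the parental GC cultures. *Col11a1* and *Ccdc3* had next to no counts there, at most 0.0955 and 0.0631 CPM, so their GC effects cannot be compared between the genotypes. *Fstl3* and *Mmp19* stayed at or below 0.742 and 0.811 CPM in the clone.

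**Figure D3:**
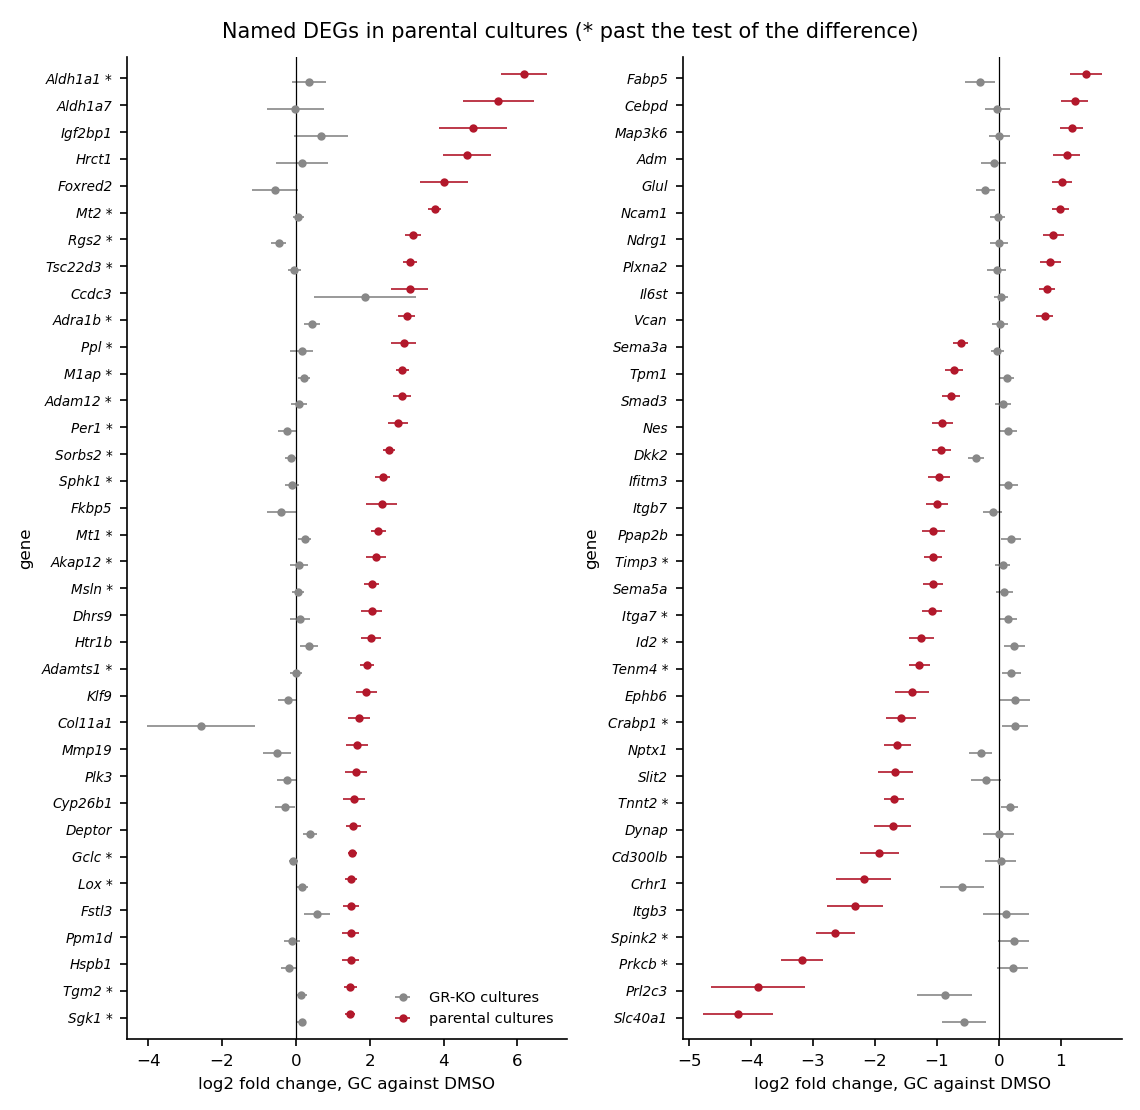
Log2 fold change with GC (horizontal axes) of the 72 named DEGs in parental (red) and GR KO cultures (gray), with bars for 1 SE either way. An asterisk marks the 27 genes past the test of the difference between the genotypes, among them *Mt2*, *Rgs2* and *Prkcb*.

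Genes too low for the main filter were not tested in the main fit, yet some were detected only with GC. The filter asked for 0.5 CPM in 3 cultures, and as there are 2 parental GC cultures, a gene on only there could not pass it. There were 36 genes at that level in both parental GC cultures and in no other culture. They were picked for being high with GC, so their values are a description. With the filter at 2 cultures, edgeR called 2 of the 36, *Zbtb16* and *Sult1a1*, and none of the others. That filter admits the 36 only through the GC cultures, so no support is drawn from those calls. *Zbtb16*, a transcription factor and established GR target, had 137 and 221 counts with GC and none in the other 9 cultures, at least 157-fold higher than the DMSO group against a floor of 3 counts over that group. *Sult1a1*, a sulfotransferase that is also an established target, had 79 and 81 counts and none elsewhere (at least 70.1-fold higher). Acute phase genes were among the 36, with 31 and 31 counts of *Lcn2* (at least 27.2-fold), 34 and 21 of *Orm1* (at least 24.1-fold) and 22 and 46 of *Serpina3m* (at least 29.8-fold). *Serpina3m* is uncertain because its cluster holds near-identical paralogs. *Fmo2*, a monooxygenase, had 22 and 14 counts with GC, and *Acp5*, a phosphatase best known from osteoclasts, had 17 and 32. Of the 36 genes, 12 had no count in any DMSO culture and 9 of those had none in the GR KO cultures either.

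DEGs were placed on the mouse assembly GRCm38 to see which lie side by side. Within 100 kb there were 4 pairs of DEGs, and in each both members rose. *Mt2* (chr8:94172664-94173568) and *Mt1* (chr8:94179082-94180327) lie 5.51 kb apart on the plus strand, and *Aldh1a1* (chr19:20492715-20643465) and *Aldh1a7* (chr19:20692953-20727562) lie 49.5 kb apart. *Fam46b* (chr4:133480132-133487938) and *Trnp1* (chr4:133491100-133498550) are separated by 3.16 kb and had log2 fold changes of 2.55 and 1.41. *Ly6a* (chr15:74994877-74998031) and *Ly6c1* (chr15:75044018-75048830) are separated by 46.0 kb and had log2 fold changes of 1.53 and 1.66. The latter pair belongs to a family with similar sequences, where assignment of reads is uncertain.

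Promoters were searched for the palindrome that GR binds, since it is the best-defined route to direct induction. RefSeq gave a promoter, 250 bases before to 50 after the start, for 56 of the 77 upregulated and 28 of the 33 downregulated DEGs and for 9438 of 12512 symbols tested. Under 80% of the upregulated DEGs had one, so shares over that set are void and single promoters are given as a description. The full palindrome has the half-sites AGNACA and TGTNCT 3 bases apart and was searched on both strands. It was in 3 of the 9438 promoters (0.0318%), and of the DEGs only *Sgk1* held it. The relaxed form, GNACA and TGTNC at the same distance, includes the full one and was in 33 of all promoters (0.350%). It was in those of *Suox*, *Mt1*, *Sgk1* and *Map3k6* among the upregulated DEGs and in none of the downregulated DEGs. The half-site AGAACA was in 14.05% of all promoters and, as counts only, in 6 of the 56 of upregulated and 8 of the 28 of downregulated DEGs. These 4 promoters are printed with the match to the relaxed form in capitals, 5′ to 3′ on the strand of the gene, from the RefSeq table on GRCm38.p6. They lie at chr10:128673869-128674168 on the minus strand for *Suox*, which encodes sulfite oxidase, chr8:94178839-94179138 on the plus strand for *Mt1*, chr10:21993640-21993939 on the plus strand for *Sgk1* and chr4:133240568-133240867 on the plus strand for *Map3k6*.
Suox: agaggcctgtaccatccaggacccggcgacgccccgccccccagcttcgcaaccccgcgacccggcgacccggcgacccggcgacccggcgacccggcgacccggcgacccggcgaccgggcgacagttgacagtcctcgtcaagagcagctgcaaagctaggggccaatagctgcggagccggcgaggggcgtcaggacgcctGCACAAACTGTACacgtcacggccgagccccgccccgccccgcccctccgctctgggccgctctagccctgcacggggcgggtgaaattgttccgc
Mt1: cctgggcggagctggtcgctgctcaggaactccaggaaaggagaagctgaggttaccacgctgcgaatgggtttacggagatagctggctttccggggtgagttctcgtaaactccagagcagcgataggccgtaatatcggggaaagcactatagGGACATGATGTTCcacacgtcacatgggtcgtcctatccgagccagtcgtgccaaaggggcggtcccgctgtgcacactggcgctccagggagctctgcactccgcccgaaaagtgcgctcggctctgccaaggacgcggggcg
Sgk1: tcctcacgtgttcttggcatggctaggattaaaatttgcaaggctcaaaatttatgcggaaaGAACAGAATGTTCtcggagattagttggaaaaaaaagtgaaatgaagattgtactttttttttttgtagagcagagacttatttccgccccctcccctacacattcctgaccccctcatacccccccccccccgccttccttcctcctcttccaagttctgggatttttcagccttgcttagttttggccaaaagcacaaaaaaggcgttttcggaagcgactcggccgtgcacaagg
Map3k6: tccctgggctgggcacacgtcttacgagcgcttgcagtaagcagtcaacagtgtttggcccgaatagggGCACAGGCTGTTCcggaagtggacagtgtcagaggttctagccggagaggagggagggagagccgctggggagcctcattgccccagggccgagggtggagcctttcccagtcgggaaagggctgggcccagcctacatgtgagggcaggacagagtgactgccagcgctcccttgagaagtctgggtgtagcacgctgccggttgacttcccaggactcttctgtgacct

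The capitals begin 46 bases before the start in *Suox*, 94 in *Mt1*, 188 in *Sgk1* and 181 in *Map3k6*. A match is a stretch of letters and not a site shown to be bound, and promoters without a match say nothing of elements elsewhere. Because *Mt1* and *Mt2* are also metal-responsive, a loose pattern for the core of the metal response element, TGCNCNC, was searched on both strands. It was common, in 64.5% of all promoters, and was found 3 times in the window of *Mt1* and 6 times in that of *Mt2*. The *Mt2* promoter, chr8:94172368-94172667 on the plus strand, is shown with matches to this loose pattern in capitals beside the *Mt1* promoter above. A stricter core would fit fewer of them. *Mt2*, which had the larger fold change of the pair, holds no match to the GR palindrome in this window.
Mt2: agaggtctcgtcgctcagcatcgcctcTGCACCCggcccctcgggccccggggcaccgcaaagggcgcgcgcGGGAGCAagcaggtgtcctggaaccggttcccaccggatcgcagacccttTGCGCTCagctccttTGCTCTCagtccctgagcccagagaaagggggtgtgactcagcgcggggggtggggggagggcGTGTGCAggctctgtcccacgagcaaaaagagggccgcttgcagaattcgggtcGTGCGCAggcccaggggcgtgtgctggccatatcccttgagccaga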

How the data were processed

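Total RNA was sequenced from 3′ ends (QuantSeq) by the authors, who trimmed reads with Trim Galore 0.6.5, aligned them to GRCm38 with STAR 2.6.1d, counted them with featureCounts on Ensembl release 75 and deposited raw counts per gene. The strand setting is not named, beyond a general statement in the paper that defaults were used unless stated otherwise. Overlapping antisense genes are therefore not taken as separated. Samples were grouped by their labels.

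All 11 cultures were fitted as 4 groups without a replicate block, with TMM factors, in edgeR 4.0.16 (quasi-likelihood F test, R 4.3.3). Genes needed 0.5 CPM in 3 cultures, and p-values were adjusted by Benjamini-Hochberg over all genes tested. DESeq2 1.42.0 was the main alternative, beside other size factors, filters and fold minimums, the parental cultures alone, a replicate block and leaving out each culture. SE is the log2 fold change divided by the square root of F. The steps were tested on simulated data. CPM of tested genes are TMM-normalised and those of markers and untested genes are per total count. Genes were named by rule: the 12 largest changes in each direction without overlap, every DEG of 27 lists (984 genes, 764 tested) and a fixed set. The members and lists were chosen with earlier results of these data known. Lists were described by counts and medians. Positions are from GENCODE on the same assembly. Tumor libraries were not analysed here. Some results are withheld and not reported here.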

Additional observations from a re-analysis of the deposited data

Results flagged for a closer look

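GC acted differently on 37 genes in parental and GR KO cells, by an adjusted p under 0.05 from edgeR. The count was 128 with DESeq2, and 22 to 43 with edgeR when a parental DMSO or GR KO culture was left out. Of the genes named, 27 were among the 37, and each value is the parental log2 fold change minus that of the clone. The differences were 5.81 for *Aldh1a1*, 3.70 for *Mt2*, 3.64 for *Rgs2*, 3.14 for *Tsc22d3*, 3.00 for *Per1*, 2.79 for *Adam12*, 2.76 for *Ppl*, 2.67 for *M1ap*, 2.66 for *Sorbs2* and 2.56 for *Adra1b*. Smaller positive differences were 2.45 for *Sphk1*, 2.09 for *Akap12*, 2.00 for *Msln*, 1.99 for *Mt1*, 1.91 for *Adamts1*, 1.61 for *Gclc*, 1.33 for *Lox*, 1.33 for *Tgm2* and 1.30 for *Sgk1*. Negative differences, where GC lowered the gene in parental cells only past the test, were -1.12 for *Timp3*, -1.23 for *Itga7*, -1.49 for *Tenm4*, -1.50 for *Id2*, -1.85 for *Crabp1*, -1.86 for *Tnnt2*, -2.88 for *Spink2* and -3.41 for *Prkcb*. The clone is a single one, and its part in these differences cannot be told apart from that of GR.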

How the results depend on the processing

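No named DEG changed sign under any alternative. The number of DEGs moved with the test: DESeq2 called 137 upregulated and 114 downregulated genes in parental cells and 128 differences between genotypes, and fitted to the parental cultures alone edgeR called 47 and 12 and DESeq2 131 and 105. Without the low-count filter 50 genes were downregulated and 64 differed. With the replicate block, 48 genes were upregulated and 15 downregulated (62 of these 63 were among the 110), and 27 differed. Correlations of same-numbered cultures were 0.146 and 0.279 for the parental pairs and had mixed signs elsewhere, so the numbers were not taken as pairs. With each culture left out in turn, upregulated DEGs ranged from 28 to 90, downregulated DEGs from 3 to 42 and differences from 17 to 43, and GR KO cells had 0 DEGs in each of these edgeR fits (237 genes at an unadjusted p under 0.05 with all cultures, and 0 DEGs with DESeq2). Where 1 parental GC culture was left out, the other was assumed to vary like the remaining groups. Of 72 named DEGs (71 with a value without GC culture 1, GC culture 2 or DMSO culture 3), 47 lost their call without GC culture 1, 45 without GC culture 2, 29 without DMSO culture 1, 22 without DMSO culture 2 and 28 without DMSO culture 3. Leaving out GR KO DMSO cultures 1, 2 and 3 lost 14, 6 and 11, and GR KO GC cultures 1, 2 and 3 lost 0, 19 and 1. Under the replicate block 26 of the 72 lost it, among them *Fkbp5* (adjusted p = 0.0653), *Hspb1* (0.0547) and *Glul* (0.0569), and with edgeR on the parental cultures alone 28. The call held for 23 in every setting that gave a value. DESeq2's size factors, filters at 2 cultures or 10 counts, and other fold minimums kept the counts within 1.5 times. Among genes not called, *Mitf* turned to -0.0497 without parental DMSO culture 1 and -0.0615 without GC culture 2 (highest 0.179, without DMSO culture 3), *Tgfb3* to 0.000236 without DMSO culture 3 (lowest -0.321, without DMSO culture 2) and *B2m* to 0.0973 without GC culture 1 (lowest -0.394, without GC culture 2), and the cause was not tested.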

Other observations

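DEGs outside every list held further cell biology, and the genes given here were chosen after their values were seen. For the unlisted genes of this section, calls with a culture left out or under the replicate block are not given. Of all 110 calls, edgeR kept 62 under the block and 72 without DMSO culture 2. *Ctla2a*, a cathepsin inhibitor, was at 16.9, 21.5 and 18.3 CPM with DMSO and 131 and 140 CPM with GC, a log2 fold change of 2.84 (adjusted p = 0.000312 from edgeR), and its effect exceeded that in GR KO cells by 4.29 (adjusted p = 0.00275). *Suox*, the enzyme that removes sulfite, rose from 2.21, 4.00 and 3.70 CPM to 17.7 and 13.9 CPM (adjusted p = 0.00419). The surface proteins *Ly6a* and *Ly6c1*, which share sequence, rose from 119, 108 and 111 CPM to 319 and 330 CPM and from 24.5, 20.6 and 22.98 CPM to 75.9 and 67.6 CPM. *Syk*, a tyrosine kinase best known from lymphocytes, was at 18.5, 19.6 and 19.3 CPM with DMSO and 40.6 and 41.2 CPM with GC (adjusted p = 0.00594). *Figf*, the lymphatic growth factor VEGF-D, rose from 46.9, 46.5 and 35.0 CPM to 81.1 and 74.8 CPM (adjusted p = 0.0269).

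Further unlisted DEGs include regulators and enzymes. The transcription factor *Ebf1* rose by a log2 fold change of 1.22 (adjusted p = 0.0236 from edgeR), *Klf5* by 0.63 (adjusted p = 0.0236) and the kinase *Hipk2*, which phosphorylates p53, by 1.06 (adjusted p = 0.0154). *Tcf7l2*, the nuclear partner of β-catenin, fell by 0.69 (adjusted p = 0.0491) and *Lbh*, a transcriptional cofactor, by 1.19 (adjusted p = 0.00556). *Enpp1*, which makes pyrophosphate outside the cell, fell from 29.9, 35.0 and 27.1 CPM to 11.5 and 14.1 CPM, and *Dnm1*, a dynamin of synaptic endocytosis, from 28.0, 33.2 and 27.9 CPM to 13.3 and 12.4 CPM.

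Levels before treatment are given by direction as a description, because the DMSO level is part of the fold change that set the direction. The median of the mean DMSO level was 19.2 CPM for upregulated DEGs, 55.8 CPM for downregulated DEGs and 16.4 CPM for all genes tested. Under 10 CPM in DMSO lay 28 of the 77 upregulated and 5 of the 33 downregulated DEGs, and at low levels a fall is harder to detect than a rise, which was not tested here.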
